A study of Mus musculus with 2 samples.

Results

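The 41 genes described here are 29 immediate-early genes and 12 heat shock genes, taken from a list of names that uses no threshold on their values. They were matched by gene identifier to 38320 entries of a deposited RNA-seq gene table, and all 41 were among the 12861 genes tested, those with a mean FPKM of at least 1. FPKM, the number of sequenced fragments per unit of transcript length and of library depth, is a level that can be compared between genes. Adherent liver cells were compared between Foxf1 fl/fl mice, which carry loxP-flanked Foxf1 alleles and no Cre, and αSMACreER;Foxf1-/- mice, in which the same floxed alleles are combined with a Cre that tamoxifen switches on. All mice were adult males on the C57/Bl6 background, given tamoxifen and treated with carbon tetrachloride (CCl4), a hepatotoxin, for 5 weeks. Liver cell suspensions were held on culture dishes for 2 hours, the cells that attached were kept, and pooled samples gave 1 library per genotype. Cre in this model is driven by the αSMA (Acta2) promoter, so deletion is expected only in myofibroblasts and other cells that use that promoter, whereas the libraries hold every cell that attached. With 1 library per genotype there is no replicate check, and every difference below is a difference between 2 libraries, given without a test.

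Immediate-early genes are transcribed within minutes of a stimulus because transcription factors such as serum response factor (SRF) and CREB are already in the cell. Signals that include those of MAP kinases switch them on, in part through partner factors and other kinases. Many encode transcription factors of the AP-1 and EGR families, and others encode phosphatases and mRNA decay factors that shut the response down again. Heat shock genes are switched on by heat shock factor 1 (HSF1) when unfolded proteins accumulate, and their products refold or clear those proteins. Both programs are known to respond when tissue is taken apart and its cells are plated.

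Letter matches to the kinds of DNA site that these programs use are shown first. Sites outside the window given next, or spelled otherwise than the letters searched, were not counted. Promoter sequences from RefSeq (GRCm38.p6, 250 bases before to 50 bases after each start) were matched for 24 of the 29 immediate-early genes and 9 of the 12 heat shock genes. Missing entries were Fosl1, Egr1, Egr3, Myc, Ier2, Hspa8, Hsp90aa1 and Hsp90ab1. The heat shock element, to which HSF1 binds, was searched on both strands as 2 inverted units, GAANNTTC or TTCNNGAA. It was found in 8 of 9 heat shock genes (Hspa1a, Hspa1b, Hsph1, Hspb1, Dnaja1, Bag3, Hspe1 and Hspd1), in 3 of 24 immediate-early genes (Fosl2, Jun and Egr2) and in 15.1% of all 32851 promoters. A gene counts here when any of its listed promoters holds the motif, and on that basis the share was 17.0% of 27025 genes. Dnajb1 was the heat shock gene without a match in this window. A stricter form with 3 units, GAANNTTCNNGAA or TTCNNGAANNTTC, contains the first motif and occurred in 0.603% of all promoters (0.662% of genes), in Hsph1, Hspe1 and Hspd1 and in 0 of 24 immediate-early genes. In the following stretches, capitals mark the heat shock element and positions are counted from the start base.
Hspa1a, minus strand, chr17:34972187-34972286: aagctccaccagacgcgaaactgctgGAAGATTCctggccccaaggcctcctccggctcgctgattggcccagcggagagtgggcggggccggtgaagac
Hspe1, plus strand, chr1:55088053-55088082: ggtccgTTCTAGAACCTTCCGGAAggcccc
Hsph1, minus strand, chr5:149636287-149636309: tgctgcagaTTCTGGAAAGTTCt
The Hspa1a stretch covers positions -130 to -31, and the same 100 bases stand at the same positions before Hspa1b (minus strand, chr17:34959269-34959368). Over the 250 bases before their starts these neighbours were 98.8% identical. Hspe1 and Hspd1 are transcribed away from each other, so the run of overlapping units shown at -89 to -72 of Hspe1 is also the run at -144 to -127 of Hspd1. The 8 matches are therefore not 8 separate sequences. The Hsph1 element lies 36 to 48 bases after the start.

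The CArG box, to which SRF binds, was found in 3 of 24 immediate-early genes, Egr2, Dusp5 and Zfp36, in 0 of 9 heat shock genes and in 1.63% of all promoters (1.81% of genes). Each is printed below with the box in capitals, since these 3 genes differed widely in level and in direction between the libraries.
Egr2, plus strand, chr10:67537484-67537513: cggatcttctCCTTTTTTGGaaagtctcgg
Dusp5, plus strand, chr19:53529058-53529087: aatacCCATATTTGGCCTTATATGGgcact
Zfp36, minus strand, chr7:28379267-28379296: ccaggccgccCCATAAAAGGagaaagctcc
Dusp5 holds 2 adjoining boxes. The Egr2 box shown precedes 1 of 5 listed starts of that gene, and another box precedes 3 of the others. The cAMP response element TGACGTCA, to which CREB binds, was found in Dusp1 and Btg2 and in 1.79% of all promoters (2.03% of genes). The AP-1 site, TGACTCA or TGAGTCA, was found in 0 of 24 immediate-early genes, in Bag3 among the heat shock genes and in 5.20% of all promoters (5.95% of genes). A match is a run of letters, and neither binding nor use of these sites was measured.

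The smallest steps between low FPKM values put the depth at about 9.75 M reads for Foxf1 fl/fl and 11.3 M reads for αSMACreER;Foxf1-/-. The 95% counting intervals below rest on these estimates and cover counting error only, not the difference between mice or preparations. Differences are log2(FPKM + 0.1) of the αSMACreER;Foxf1-/- library minus the Foxf1 fl/fl library after scaling, and "past 1.5-fold" means 0.58 or more in either direction. Both preparations held more than stromal cells. The summed level of 16 hepatocyte markers was 5334 FPKM for Foxf1 fl/fl and 1932 FPKM for αSMACreER;Foxf1-/-, with all 16 lower past 1.5-fold. For 17 macrophage and Kupffer cell markers the sums were 16753 and 14060 FPKM, with 2 lower past 1.5-fold. For 12 neutrophil markers they were 2378 and 986 FPKM, with 10 lower past 1.5-fold and 2 above 0. S100a8 stood at 625 and 256 FPKM and S100a9 at 1258 and 504 FPKM. Ly6g was at 9.82 FPKM for Foxf1 fl/fl and was listed at 0 for αSMACreER;Foxf1-/-. The 16 stellate cell and myofibroblast markers summed to 449 and 646 FPKM, of which Acta2, the αSMA gene itself, stood at only 7.77 and 5.65 FPKM and Des at 1.70 and 3.29 FPKM. Most of both sums came from the matrix genes Col1a1, Col1a2, Col3a1 and Dcn, named after their values were seen. They stood at 70.2 to 127 FPKM for Foxf1 fl/fl and 103 to 186 FPKM for αSMACreER;Foxf1-/-. The 12 endothelial markers summed to 949 and 977 FPKM, 12 lymphocyte markers to 192 and 226 FPKM and 7 cholangiocyte markers to 554 and 656 FPKM. What share of any value below came from which cells was not tested, and in such bulk libraries fewer cells of a type and less RNA per cell cannot be told apart.

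Both gene classes were well expressed in both libraries. None of the 41 genes was at 0. Their levels ran from 5.76 FPKM for Egr3 in the Foxf1 fl/fl library to 1064 FPKM for Hspa8 in the αSMACreER;Foxf1-/- library. Of the 41 genes, 40 lay above the median gene of both libraries and 20 lay at or above percentile 90 in both. Together they made up 1.07% of all FPKM for Foxf1 fl/fl and 1.14% for αSMACreER;Foxf1-/-. The immediate-early share was 0.734% and 0.691%, and the heat shock share 0.340% and 0.446%.

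**Figure D1:**
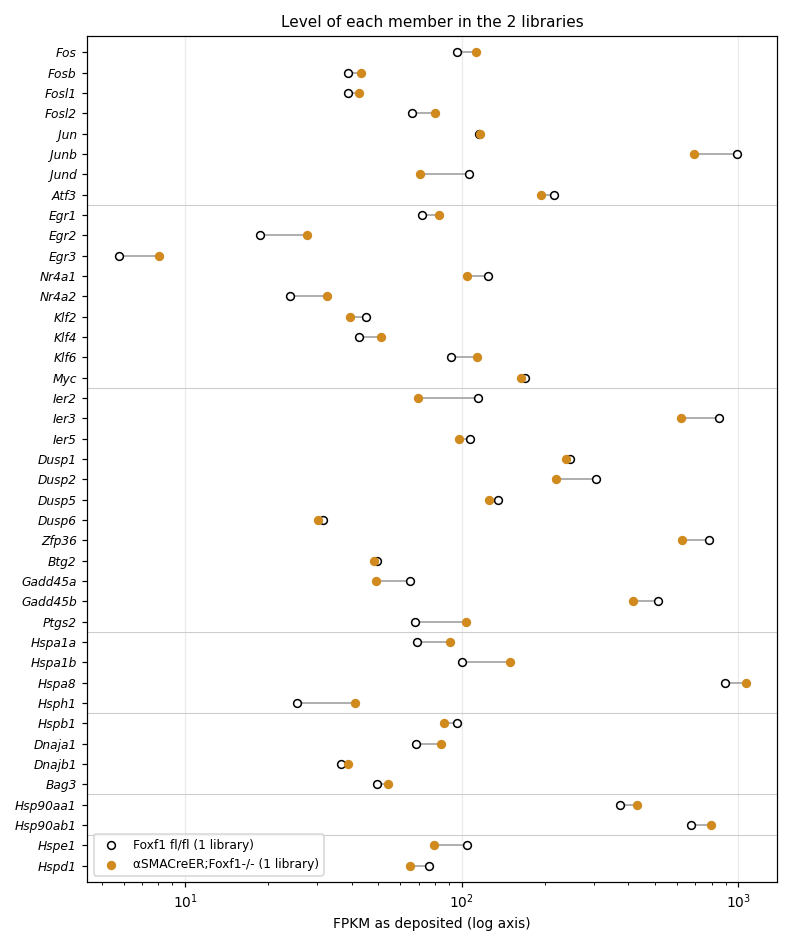
FPKM (log axis) of each of the 41 genes in the Foxf1 fl/fl library (open circles) and the αSMACreER;Foxf1-/- library (filled circles), with grey lines between roles. Levels run from 5.76 to 1064 FPKM, and the 2 circles of most genes lie close together.

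Differences between the libraries were smaller than that range, which is one between genes. In all, 22 of the 41 genes differed by less than 1.2-fold, 20 lay above 0 and 21 below. Of the 12861 genes tested, 6484 lay above 0 and 6376 below. How many of them differed by less than 1.2-fold was not counted. Among all genes tested, 12.9% were higher and 13.2% lower past 1.5-fold in the αSMACreER;Foxf1-/- library. Of the 29 immediate-early genes 1 was higher (Ptgs2) and 2 were lower (Jund and Ier2), and of the 12 heat shock genes 1 was higher (Hsph1) and 0 were lower. Among 8553 genes averaging 5 FPKM or more, a range that holds every member, 692 were higher and 953 lower, so the counts of members were near or under the background. The median difference was -0.08 over the immediate-early genes, 0.20 over the heat shock genes and 0.01 over all genes tested. The immediate-early median was positive, at 0.13 and 0.05, when the libraries were scaled to an equal FPKM sum or to the upper quartile. The median of all genes tested was then 0.21 and 0.13. The sign of the immediate-early median thus depended on the scaling. The heat shock median was positive under each scaling, but every other scaling tried moved values upward, so none could have turned it negative. At this depth 17 counting intervals lay above 0, 18 below and 6 held 0. The same count was not made over all genes. With a median half-width of 0.08 even small differences leave 0 out, so this count does not set the members apart.

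**Figure D2:**
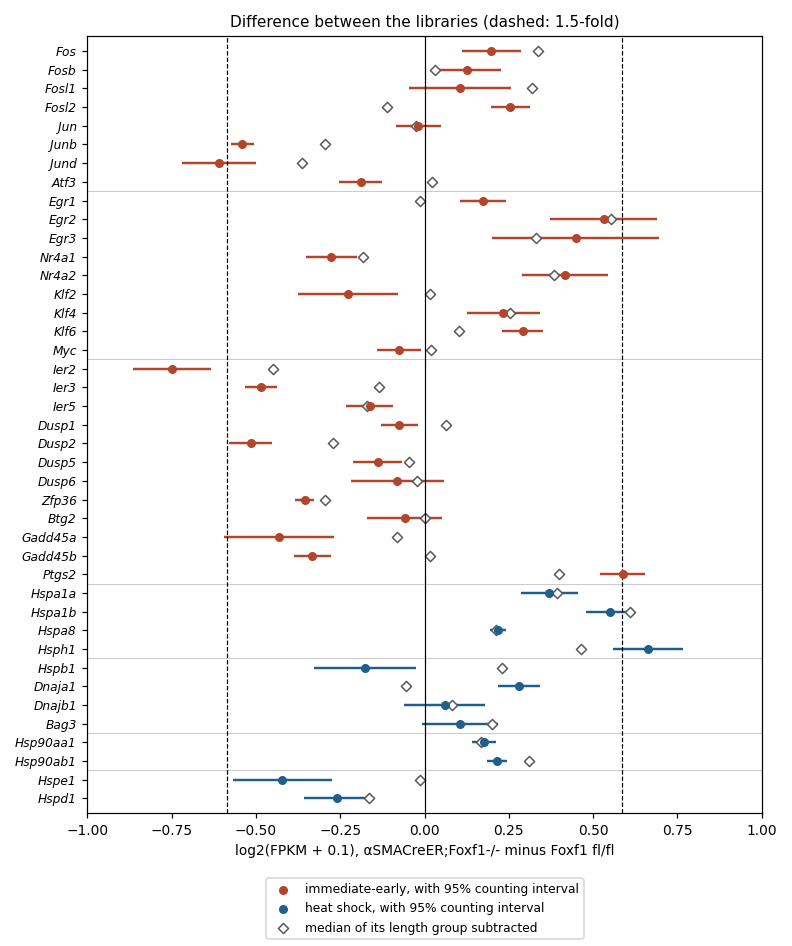
Difference in log2(FPKM + 0.1), αSMACreER;Foxf1-/- minus Foxf1 fl/fl, for each gene with its 95% counting interval, and the same after the median of genes of like transcript length was subtracted (open diamonds). Dashed lines mark 1.5-fold. Jund and Ier2 lie past the lower line and Ptgs2 and Hsph1 past the upper one, and the diamonds of all 4 lie inside both lines.

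Where a pair of levels is given below, the Foxf1 fl/fl library comes first. AP-1 is a pair of proteins from the FOS, JUN and ATF families, and its 8 members here split evenly, 4 above and 4 below 0. The 4 FOS family genes were above 0, although Fosl2 was not when set against genes of like transcript length. Fos, the classical member, stood at 96.5 and 113 FPKM, a difference of 0.20 with a counting interval of 0.11 to 0.29. Fosb stood at 38.9 and 43.2 FPKM, a difference of 0.13. The ratio of Fosb to Fos was 0.403 and 0.383, a log2 change whose interval, -0.21 to 0.06, held 0. Fosl1, which encodes FRA1, was at 39.0 and 42.7 FPKM, and its interval of -0.04 to 0.26 held 0. Its value is uncertain, since 56.9% of the 75-base windows of the Fosl1 transcript also occur in the overlapping, oppositely transcribed gene Ccdc85b, which stood at 39.9 and 23.9 FPKM. Fosl2, which encodes FRA2, was at 66.2 and 80.3 FPKM, a difference of 0.25 that turned to -0.11 against genes of like length.

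The JUN family differed from one member to the next. Jun was level, at 116 FPKM in both libraries, a difference of -0.02 with an interval of -0.09 to 0.05. Junb was the most abundant immediate-early gene, ranked 118 among the genes of the Foxf1 fl/fl library with 989.6 FPKM and 141 in the αSMACreER;Foxf1-/- library with 692 FPKM, a difference of -0.54. The Junb difference was -0.34 under equal FPKM sums and -0.30 against genes of like length. Jund (GRCm38 chr8:70698949-70700616, plus strand, a single exon), known as the member most expressed in resting cells, stood at 106 and 70.7 FPKM. Its difference was -0.61 with an interval of -0.72 to -0.50. Jund was short of 1.5-fold without scaling (-0.5843), with equal FPKM sums (-0.41), with scaling to the upper quartile (-0.48), with the GC trend removed (-0.45) and against genes of like length (-0.36). The Jund to Jun ratio, which no scaling between libraries can alter, was 0.917 and 0.609. These transcripts differ in length, and against genes of like length Jund was at -0.36 and Jun at -0.03. An antisense gene, Gm11175, holds 45.9% of the 75-base windows of Jund and was listed at 353 and 248 FPKM, so reads of the pair cannot be assigned without strand. Atf3, a stress-induced partner of the JUN proteins, was at 216 and 193 FPKM, a difference of -0.19 that was 0.01 under equal FPKM sums and 0.02 against genes of like length.

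The EGR zinc finger factors were above 0, except for Egr1 against genes of like length. Egr1 had the highest level of the 3, 72.0 and 82.7 FPKM, and a difference of 0.17 that was -0.01 in that comparison. Egr2, which drives myelination genes in Schwann cells and restrains T cells, stood at 18.7 and 27.5 FPKM, a difference of 0.53 with an interval of 0.37 to 0.69. Egr3 had the lowest level of all members, 5.76 and 8.04 FPKM, and its difference of 0.45 had an interval from 0.20 to 0.70. Neither Egr2 nor Egr3 was past 1.5-fold, although both were so when the libraries were scaled to equal FPKM sums, at 0.73 and 0.65. Srf, whose product drives Egr1 transcription, stood at 12.4 and 10.4 FPKM, so the ratio of Egr1 to Srf was 5.83 and 7.99. Against genes of like length Egr1 and Srf were at -0.01 and -0.22.

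The orphan nuclear receptors Nr4a1 and Nr4a2, which act without a known hormone, lay on opposite sides of 0. Nr4a1 was at 125 and 105 FPKM, a difference of -0.28, whereas Nr4a2 was at 23.9 and 32.5 FPKM, a difference of 0.42. Their intervals, for counting error only, were -0.35 to -0.20 and 0.29 to 0.55. Against genes of like length the differences of Nr4a1 and Nr4a2 were -0.18 and 0.38. The Kruppel-like factors were divided as well. Klf2, which in endothelium follows blood flow, was at 45.3 and 39.3 FPKM, a difference of -0.23 that was 0.02 against genes of like length. Klf4, which restrains proliferation, was at 42.6 and 50.9 FPKM, and Klf6, known to be induced in stellate cells of injured liver, was at 91.2 and 114 FPKM, for differences of 0.23 and 0.29. Against genes of like length these were 0.25 and 0.10. Myc, the growth-promoting transcription factor, stood at 169 and 163 FPKM, a difference of -0.08 whose sign was positive under equal FPKM sums and under upper-quartile scaling.

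Of 12 feedback and growth regulators 11 lay below 0 and Ptgs2 above, with a median of -0.25. Under equal FPKM sums Ier5, Dusp1, Dusp5, Dusp6 and Btg2 moved above 0, and against genes of like length the median of the group was -0.06. Ier2 (chr8:84661331-84662852, minus strand, a single exon) stood at 115 and 69.4 FPKM. Its difference, -0.75 with an interval of -0.86 to -0.63, was the lowest among the members, and its product is a nuclear protein of the early growth response. Ier3, which protects cells from some death signals, was far more abundant at 850.5 and 618 FPKM, a difference of -0.49 that was -0.14 against genes of like length. Ier5, whose product is known to assist HSF1, was at 107 and 97.4 FPKM, a difference of -0.16.

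Dual-specificity phosphatases remove the activating phosphates from MAP kinases. Dusp1, which acts mainly on the stress kinases p38 and JNK, was at 246 and 238 FPKM, a difference of -0.08. Dusp2, found in the nucleus of activated leukocytes, was at 307 and 218 FPKM, a difference of -0.52 with an interval of -0.58 to -0.45. The nuclear ERK phosphatase Dusp5 was at 135 and 125 FPKM, a difference of -0.14, and the cytoplasmic ERK phosphatase Dusp6 was at 31.4 and 30.2 FPKM, with an interval of -0.22 to 0.06 that held 0. Against genes of like length the differences of Dusp1, Dusp2, Dusp5 and Dusp6 were 0.06, -0.27, -0.05 and -0.02. An antisense gene covers 19.7% of the Dusp5 windows.

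Zfp36 encodes tristetraprolin, which binds AU-rich elements and speeds the decay of cytokine mRNAs. It stood at 783 and 623 FPKM, a difference of -0.36 with an interval of -0.38 to -0.33. Btg2, an antiproliferative factor that recruits deadenylases, was level within counting error at 49.5 and 48.4 FPKM, with an interval of -0.17 to 0.05. Gadd45a and Gadd45b encode growth arrest proteins that link stress signals to p38 and to the cell cycle. Gadd45a was at 64.9 and 48.9 FPKM, a difference of -0.43, and Gadd45b was at 514 and 415 FPKM, a difference of -0.33. Against genes of like length these became -0.08 and 0.02. Ptgs2 (chr1:150100031-150108227, plus strand, 10 exons) encodes cyclooxygenase 2, the inducible enzyme of prostaglandin synthesis. It stood at 67.9 and 104 FPKM, a difference of 0.59 with an interval of 0.52 to 0.65. The 1.5-fold threshold lies inside that interval, and Ptgs2 was short of it with a pseudocount of 1 (0.5817), with the GC trend removed (0.42) and against genes of like length (0.40).

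Among the heat shock genes, the 4 of the HSP70 and HSP110 group were above 0, with a median of 0.46. They were also above 0 with the GC trend removed and against genes of like length. HSP70 proteins bind exposed stretches of unfolded proteins, and HSP110 exchanges their nucleotide. Hspa8, the constitutive HSC70, was the most abundant member in the αSMACreER;Foxf1-/- library, at 1064 FPKM against 898 FPKM in the Foxf1 fl/fl library, a difference of 0.22. The inducible Hspa1a was at 69.1 and 90.9 FPKM, a difference of 0.37, and its neighbour Hspa1b at 100.04 and 149 FPKM, a difference of 0.55. These copies are uncertain one by one, since 52.7% of the 75-base windows of Hspa1a also occur in Hspa1b, and Hspa1a further overlaps Gm20481, listed at 60.4 and 83.2 FPKM. Their sum relative to Hspa8 was 0.188 and 0.226, a log2 change of 0.26 with an interval of 0.20 to 0.32. Hsph1 (chr5:149614287-149636376, minus strand), the HSP110 gene with the 3-unit heat shock element shown above, stood at 25.5 and 41.1 FPKM. Its difference of 0.66, with an interval of 0.56 to 0.77, was the highest of all members, and no window of it was shared with another gene.

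The HSP40 co-chaperones, which deliver substrates to HSP70, formed a group with Bag3 and the small heat shock protein Hspb1, and the median of these 4 genes was 0.08. Dnaja1, an HSP40, was at 68.2 and 84.3 FPKM, a difference of 0.28 that was -0.05 against genes of like length. Dnajb1, the HSP40 induced by heat, was at 36.6 and 38.8 FPKM, and Bag3, which steers HSP70 clients to autophagy, was at 49.3 and 54.0 FPKM. Both of their intervals, -0.06 to 0.18 and -0.01 to 0.22, held 0. Hspb1, whose product keeps unfolded proteins soluble, was at 96.1 and 86.5 FPKM, a difference of -0.18 that was 0.23 against genes of like length. For Hspb1, 47.3% of the windows also occur in its pseudogene Hsp25-ps1.

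The cytosolic HSP90 chaperones, which hold kinases and steroid receptors ready for use, lay above 0, also against genes of like length. Hsp90aa1, the inducible form, was at 373 and 429 FPKM, and Hsp90ab1, the constitutive form, at 672 and 793 FPKM, for differences of 0.18 and 0.21. With the GC trend removed these were 0.04 and 0.30. The ratio of Hsp90aa1 to Hsp90ab1 was 0.555 and 0.540, a log2 change whose interval of -0.08 to 0.01 held 0. The mitochondrial chaperonins, which fold imported proteins in the matrix, share the 3-unit heat shock element shown above and lay below 0. Hspe1, which encodes HSP10, was at 104 and 79.2 FPKM, a difference of -0.42, and Hspd1, which encodes HSP60, at 76.4 and 65.0 FPKM, a difference of -0.26. Against genes of like length these became -0.02 and -0.17. Windows shared with other annotated genes made up 53.1% for Hsp90aa1, 41.3% for Hspa8, 33.7% for Hspd1 and 26.2% for Dnaja1.

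The difference between the libraries moved with transcript length, for these genes and for all others. Across the 41 genes, Spearman's rho between the length of the longest annotated transcript and the log2 difference was 0.79, against 0.45 across 12692 genes with a length. The genes share the same 2 libraries, so this describes the libraries and carries no test. Of 12 members up to 2000 bases long, 11 lay below 0, with a median of -0.43. These were Fosl1, which lay above 0, and Junb, Jund, Atf3, Klf2, Ier2, Ier3, Dusp2, Gadd45a, Gadd45b, Hspb1 and Hspe1. Of 14 members over 3000 bases, 12 lay above 0, with a median of 0.24. With all genes sorted into 20 groups by length, the groups that hold the short members had medians of -0.41 to -0.21. Those that hold the long members had medians of -0.02 to 0.37. Genes above and below 0 were not counted over all genes of these lengths. GC content of the transcript gave a rho of -0.45 over the members and -0.18 over all genes. Whether length or GC content had a part in any single difference was not tested.

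**Figure D3:**
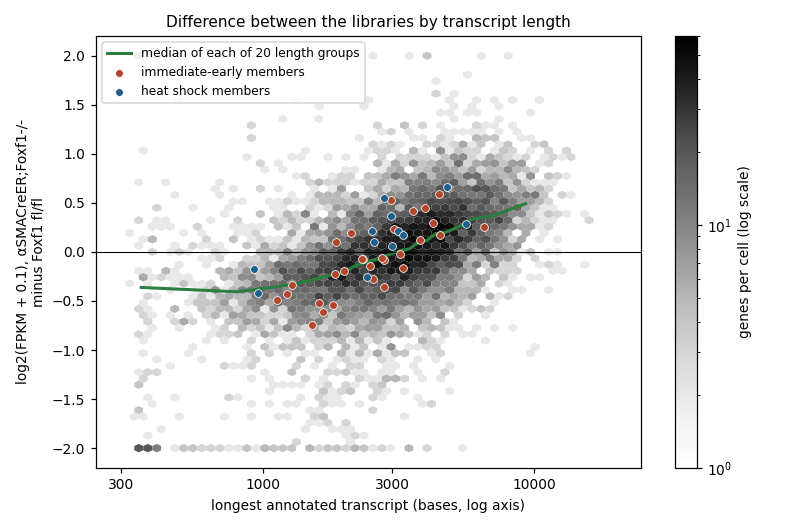
Difference in log2(FPKM + 0.1) between the libraries against transcript length (log axis) for 12456 genes of 300 to 20000 bases (grey, values beyond -2 or 2 drawn at the edge), the median of 20 length groups (green) and the 41 members (coloured). Both the grey cloud and the members slope upward, with short members mostly below 0 and long members mostly above.

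With genes sorted into 20 groups by length and each group centred on its own median, 10.0% of all genes were higher and 11.1% lower past 1.5-fold, and the single member past it was Hspa1b, at 0.61. The immediate-early median was then 0.00 and the heat shock median 0.21. Fos and Fosl1 moved up to 0.34 and 0.32, Jund and Ier2 stood at -0.36 and -0.45, Ptgs2 at 0.40 and Hsph1 at 0.46. Among the alternatives, the other pseudocounts changed no sign and the other scalings only moved values up. A gene above 0 could thus turn only with the length or GC trend removed, whereas a gene below 0 could also turn with scaling. Across the alternatives of pseudocount, scaling, length and GC content, 27 of the 41 genes kept one direction, and the share of all genes that did so was not counted. The 17 above 0 were Fos, Fosb, Fosl1, Egr2, Egr3, Nr4a2, Klf4, Klf6, Ptgs2, Hspa1a, Hspa1b, Hspa8, Hsph1, Dnajb1, Bag3, Hsp90aa1 and Hsp90ab1, and the 10 below 0 were Junb, Jund, Nr4a1, Ier2, Ier3, Dusp2, Zfp36, Gadd45a, Hspe1 and Hspd1.

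Other genes of the same pathways give the setting of these values. Of 48 other immediate-early genes tested, 3 were higher and 4 lower past 1.5-fold, with a median of -0.13. Both counts were under the shares over all genes tested, 12.9% higher and 13.2% lower. The 3 higher were Dusp4, another MAP kinase phosphatase, at 20.5 and 38.8 FPKM, Tnfaip3, the NF-κB inhibitor A20, at 199 and 330.4 FPKM, and Nr4a3, the third NR4A receptor, at 39.1 and 60.4 FPKM. The lowest 3 were Cebpb at 678 and 401 FPKM, Id3 at 190.1 and 116 FPKM and Cebpd at 165 and 102 FPKM, all encoding transcriptional regulators. The other one past 1.5-fold, named after its value was seen, was Ppp1r15a, which ends stress-induced arrest of translation, at 932 and 587 FPKM. Against genes of like length Tnfaip3, Nr4a3, Cebpb and Id3 were no longer past 1.5-fold, at 0.37, 0.27, -0.49 and -0.39. Of 33 genes that carry the signal upstream, 4 were higher and 1 lower, with a median of 0.23 that was 0.09 against genes of like length. These counts too were near or under the shares over all genes. Braf, a kinase above ERK, was at 3.03 and 8.23 FPKM, and the coactivators Crebbp and Ep300 were at 4.08 and 9.03 FPKM and at 4.37 and 9.01 FPKM. The other higher gene, named after its value was seen, was Mapk8, which encodes the stress kinase JNK1, at 8.12 and 14.0 FPKM. Against genes of like length Ep300 and Mapk8 were short of 1.5-fold, at 0.51 and 0.42. Mapk7, which encodes ERK5, was the gene lower past 1.5-fold, at 23.4 and 14.4 FPKM.

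Of 48 other heat shock and chaperone genes tested, 2 were higher and 0 lower past 1.5-fold, with a median of -0.09. Over all genes tested the shares were larger, 12.9% higher and 13.2% lower. Hspa4l, a relative of Hsph1, was at 2.89 and 8.41 FPKM, a difference of 1.49. The other higher gene, chosen after its value was seen, was the HSP40 gene Dnaja4, at 2.64 and 5.51 FPKM. Hsf1, whose product binds the heat shock element, was near level at 13.1 and 14.7 FPKM, a difference of 0.14. Serpinh1, the collagen chaperone HSP47, was at 64.8 and 78.7 FPKM. Lowest in the list was Hmox1, which breaks down heme, at 933 and 650.5 FPKM, a difference of -0.55. The heat shock members, at 0.20, and the other chaperones, at -0.09, thus had medians on opposite sides of that of all genes, and against genes of like length the medians were 0.21 and 0.01.

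**Figure D4:**
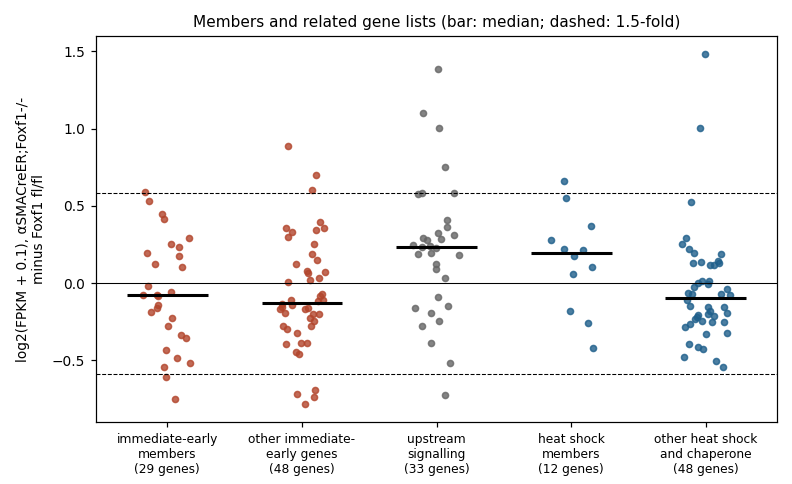
Difference in log2(FPKM + 0.1), αSMACreER;Foxf1-/- minus Foxf1 fl/fl, of each gene in the member classes and in 3 related lists, with the median as a bar and 1.5-fold as dashed lines. Medians are -0.08 and -0.13 for the immediate-early members and other immediate-early genes, 0.23 for upstream signalling, and 0.20 and -0.09 for the heat shock members and other chaperones.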

How the data were processed

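Libraries were made from pooled samples with the TruSeq RNA kit and sequenced as single-end 75-base reads. The deposited values are FPKM per gene that the authors made with TopHat and Cufflinks on mm10 (versions are not given in the sources used here), so they are already corrected for length and depth and are not counts. The strand setting is likewise not given. Entries were named through GENCODE M21 (36490 of 38320 had a gene), and 3 entries with a failed status were dropped. Values of the αSMACreER;Foxf1-/- library were divided by 1.02, the median ratio over 12011 genes. A pseudocount of 0.1 and a minimum mean FPKM of 1 were used, with the 1.5-fold threshold of the study. No test across genotypes was possible with 1 library each.

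Depth was estimated from low FPKM values of single-transcript genes of at least 1500 bases, assuming fragments of 200 bases. Of 392 and 483 such values, 60.2% and 54.9% lay within 0.1 reads of a whole number, so the depths and intervals are approximate. Shared sequence was counted as 75-base windows of the longest transcript found in any other annotated transcript. The fold step was tested on simulated data, where 99.5% of 200 genes changed 3-fold were recovered and 424 of 12700 unchanged genes were past 1.5-fold, 45 of them among the 8365 with a mean FPKM of at least 5. Unchanged genes had the same mean in both simulated libraries, with counting noise only. Differences between mice, preparations or cell mixtures and the length trend were left out, so these are not error rates of the real comparison.

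Python 3.11.15, numpy 2.4.6, pandas 2.3.3 and scipy 1.17.1 were used. All 41 members are named. From each pathway list the 3 highest and 3 lowest differences at a mean FPKM of at least 5 could be named, with Srf and Hsf1, and from each marker list the first 3 genes. The members and lists were chosen with earlier results of these data known. Alternatives were other pseudocounts, scalings, filters and thresholds, summing repeated symbols, and removing length or GC trends. Foxf1 itself was not analysed here, so its loss in the αSMACreER;Foxf1-/- library was not checked.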

Additional observations from a re-analysis of the deposited data

How the results depend on the processing

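No paired analysis was possible because only 1 library stands for either genotype, and no library could be left out in turn. Depth limits the interval of a member's difference to a median half-width of 0.08 on the log2 scale. Medians of the immediate-early genes reversed to 0.1285 with equal FPKM sums, to 0.05476 when scaled to the upper quartile and to 0.0008821 once the length trend was taken out. Those of the heat shock genes moved to 0.40 and 0.33 with the first 2 and to 0.12 with the GC trend removed. Equal FPKM sums gave 2820 genes higher and 1121 lower, with 4 immediate-early genes higher and 0 lower and 2 heat shock genes higher. Upper-quartile scaling gave 2338 genes higher and 1281 lower, with 2 immediate-early genes higher and 1 lower and 2 heat shock genes higher. Values as deposited left 1 immediate-early gene lower, and a pseudocount of 1 left 0 higher. Over all genes, the counts were 3978 higher and 3304 lower with no filter, 692 and 953 when the minimum mean FPKM was 5, and 581 and 800 at 2-fold. At 2-fold 0 immediate-early genes were higher or lower and 0 heat shock genes were higher. With the length trend removed 0 immediate-early genes were higher and 0 lower. Removing the GC trend, a choice made with the data in view, gave 1518 genes higher and 1674 lower, with 1 immediate-early gene lower (Ier2), 1 higher (Egr2 at 0.61, in place of Ptgs2 at 0.42) and 2 heat shock genes higher. Fewer genes tested, another threshold or a shifted centre make up these alternatives by construction, and the cause of the length and GC trends was not tested.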
